A study of Mus musculus with 10 samples.

Results

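The genes described here encode the machinery that brings proteins into mitochondria, folds them there and degrades those that fail. They were chosen by symbol: every gene in the platform's probe table whose symbol begins with Timm or Tomm and a digit, with 23 further import subunits, chaperones and proteases named one by one. The probe table holds 46 such genes, of which 42 were measured by a probe set with no other gene on it, among 12366 genes in all. The other 4, Dnajc19, Phb, Tomm5 and Tomm6, stand only on probe sets shared with another gene and are not analysed here. Where several probe sets measured a gene, the one with the highest average across mutant and control arrays stands for it, and no filter on low values was used.

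Nearly all mitochondrial proteins are made in the cytosol and cross the outer membrane through the TOM complex. Those with a cleavable presequence go on through the TIM23 complex, pulled into the matrix by an Hsp70 motor, while hydrophobic carriers of the inner membrane are escorted through the intermembrane space by small TIM chaperones to the TIM22 complex. In the matrix the presequence is cut off, Hsp60 and Hsp10 fold the protein, and ATP-dependent proteases remove damaged ones. Hepatocytes are rich in mitochondria, which house the urea cycle, fatty acid oxidation and ketogenesis.

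Whole livers of 5 mutant and 5 control mice were hybridised to Affymetrix mouse arrays, 1 array an animal, at 28 days of age and after a fast of 5 hours. The mutants carried loxP-flanked Dicer alleles on both chromosomes and a Cre transgene driven by Afp, a gene of fetal hepatoblasts. The controls are labelled only as control, with no genotype, and the strain of all animals is given as mixed. The comparison addresses liver gene expression after loss of Dicer, the RNase that cuts microRNA precursors to their final size. Values are on the scale of the deposited table, read here as log2, and differences are mutant minus control.

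Dicer1 was lower on both of its probe sets, with differences of -1.03 and -2.31 (adjusted p = 0.000678 and 4.1e-05 over all probe sets, limma). In mutant liver 5 these probe sets measured 6.98 and 5.84, within the range of mutant livers 1 to 4 (6.97 to 7.20 and 5.42 to 5.94). Array medians lay between 6.41 and 6.68. Mutant liver 5 stood between the other mutants and the controls on the first principal component over all genes, at -9.50, against 23.49 to 47.28 in mutant livers 1 to 4 and -31.79 to -21.01 in controls. The hepatocyte marker Alb averaged 16.24 ± 0.12 in mutants and 16.20 ± 0.11 in controls (SD, n = 5 each), and 0 of 7 hepatocyte markers passed the test. Alb, Apoa1 and Ttr lay near the highest value of the table, 16.65, and whether they can register a change there was not tested. Markers of Kupffer cells rose for 6 of 10 genes and those of stellate cells for 5 of 8.

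Of the 42 import, chaperone and protease genes, 20 were lower in mutant liver and 0 were higher at an adjusted p under 0.05 in limma, and 22 did not pass. Over all 12366 genes 20.1% were called, 11.5% as lower and 8.62% as higher. Some of these genes are dim, while none of the 42 averaged below 3.60, the 25th percentile of all values. With genes below that level left out, 25.9% of 10200 genes were called, against 45.2% of the 42. The median level was 10.13 for the 42 and 7.63 over all genes, and genes matched to the 42 in level were not compared. At an unadjusted p under 0.05, 25 of the 42 passed, against 4310 of all 12366 genes. The median difference of the 42 was -0.26, against -0.01 over all genes, and 35 of 42 differences were negative, against 6776 of 12366. Of the 42, 15 had every mutant below every control and 0 had every mutant above, against 6.99% and 6.17% of all genes.

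**Figure D1:**
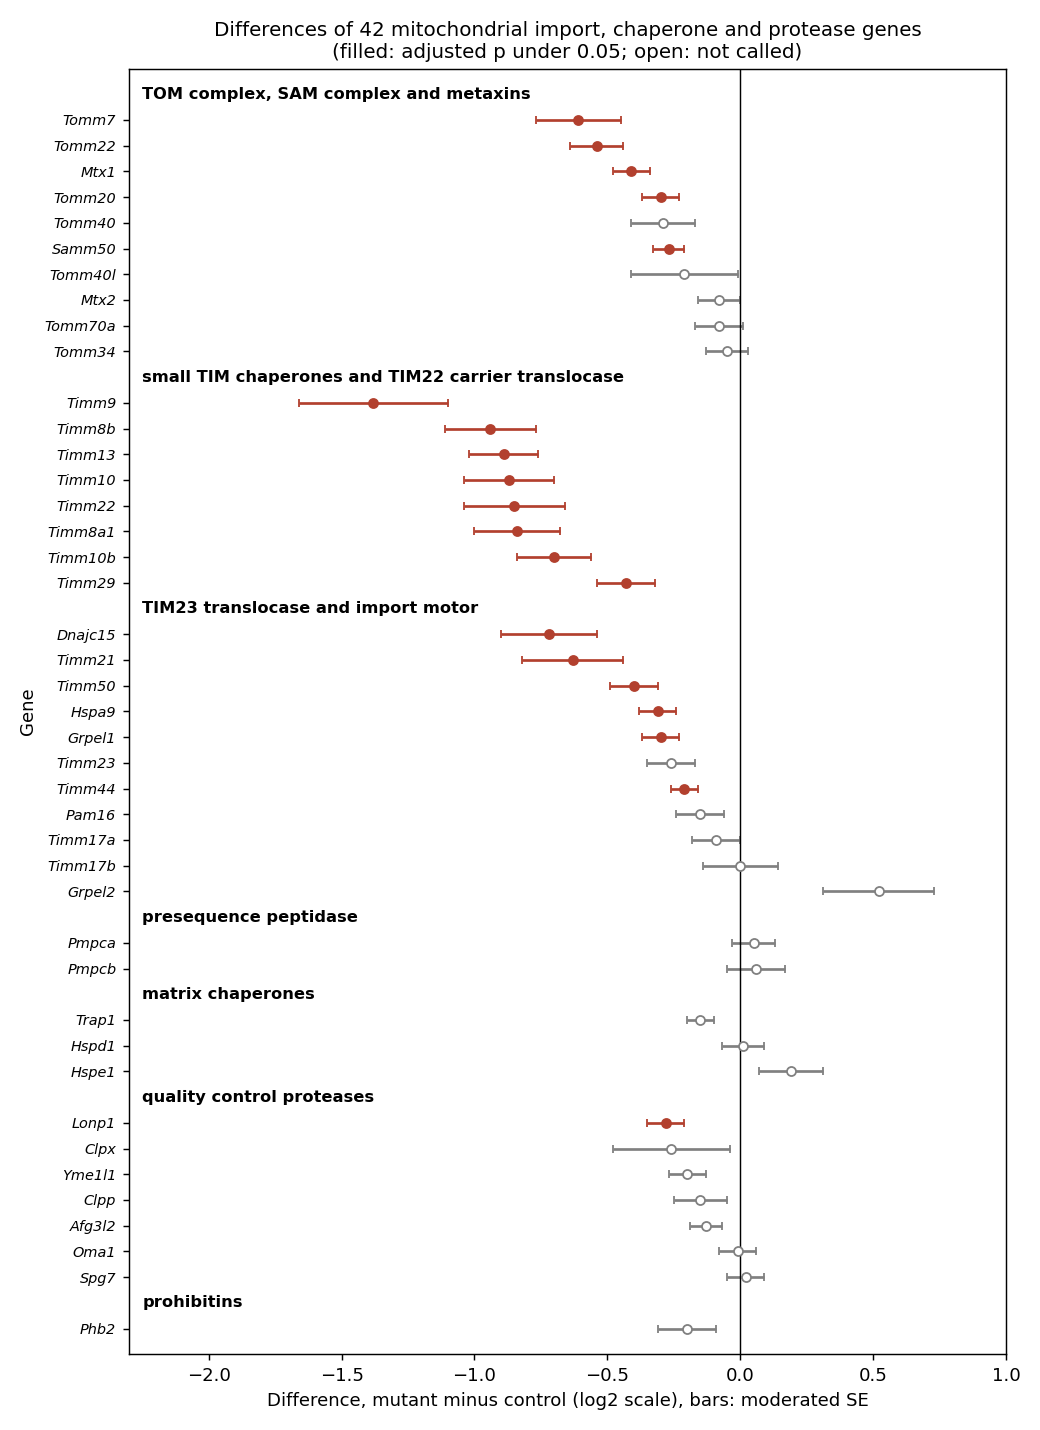
Difference between mutant and control liver for each of the 42 genes (horizontal axis, log2 scale), grouped by role, with the moderated standard error. Filled points passed the test and open points did not. The 8 genes of the small TIM and TIM22 group all lie left of zero, from -1.38 to -0.43, while the presequence peptidase and the matrix chaperones lie near zero.

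The decrease was uneven across the roles. It took in all 8 measured genes of the small TIM chaperones and the TIM22 translocase (median -0.86), 5 of 10 of the TOM complex and outer membrane assembly (median -0.28) and 6 of 11 of the TIM23 translocase and its motor (median -0.26). It took in 1 of 7 proteases, 0 of 3 matrix chaperones, 0 of 2 presequence peptidase subunits and 0 of 1 prohibitin. The differences between roles were not tested, and the genes and roles were chosen with earlier results of these data known.

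Promoters are shown for 4 of the 6 small TIM chaperone genes, whose transcripts moved together, and for Hspe1, whose transcript did not pass the test. Each of the 4 holds at least 1 of the motifs named here, and the others, Timm8a1 and Timm13, are not printed. Each runs from 250 bases before to 50 bases after the gene's start, 5′ to 3′, from RefSeq on GRCm38.p6. Capitals mark matches on either strand to 5 motifs, namely the ETS element CCGGAAG bound by GABP, the NRF1 element (GCGC, any base, TGCGC), the E-box CACGTG, the heat shock element core GAANNTTC and the YY1 element AAGATGGC.
Timm8b (chr9:50603651-50603950, + strand): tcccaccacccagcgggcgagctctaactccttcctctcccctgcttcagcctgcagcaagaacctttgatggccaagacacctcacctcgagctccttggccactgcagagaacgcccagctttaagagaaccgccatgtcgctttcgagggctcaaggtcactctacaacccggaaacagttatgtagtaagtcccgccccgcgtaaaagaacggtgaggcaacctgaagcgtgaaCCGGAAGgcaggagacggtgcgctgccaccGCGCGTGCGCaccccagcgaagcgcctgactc
Timm10 (chr2:84826771-84827070, + strand): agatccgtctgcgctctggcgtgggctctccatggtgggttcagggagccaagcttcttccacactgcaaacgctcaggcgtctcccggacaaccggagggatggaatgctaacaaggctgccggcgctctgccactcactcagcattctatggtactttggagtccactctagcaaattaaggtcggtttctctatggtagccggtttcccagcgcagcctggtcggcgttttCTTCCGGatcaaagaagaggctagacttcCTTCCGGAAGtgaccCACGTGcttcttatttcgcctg
Timm10b (chr7:105640195-105640494, + strand): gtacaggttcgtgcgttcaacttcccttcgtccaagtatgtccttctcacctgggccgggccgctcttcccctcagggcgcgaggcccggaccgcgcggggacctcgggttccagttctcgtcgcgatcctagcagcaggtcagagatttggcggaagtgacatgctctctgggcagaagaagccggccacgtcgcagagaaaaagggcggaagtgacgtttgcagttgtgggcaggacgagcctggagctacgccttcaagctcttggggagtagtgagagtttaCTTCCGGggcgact
Timm9 (chr12:71136626-71136925, - strand): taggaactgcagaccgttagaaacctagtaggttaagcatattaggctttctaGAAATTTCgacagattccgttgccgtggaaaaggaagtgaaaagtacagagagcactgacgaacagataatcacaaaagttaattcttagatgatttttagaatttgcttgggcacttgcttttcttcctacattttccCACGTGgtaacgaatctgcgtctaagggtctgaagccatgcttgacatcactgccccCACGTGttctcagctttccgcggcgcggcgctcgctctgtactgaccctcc
Hspe1 (chr1:55087898-55088197, + strand): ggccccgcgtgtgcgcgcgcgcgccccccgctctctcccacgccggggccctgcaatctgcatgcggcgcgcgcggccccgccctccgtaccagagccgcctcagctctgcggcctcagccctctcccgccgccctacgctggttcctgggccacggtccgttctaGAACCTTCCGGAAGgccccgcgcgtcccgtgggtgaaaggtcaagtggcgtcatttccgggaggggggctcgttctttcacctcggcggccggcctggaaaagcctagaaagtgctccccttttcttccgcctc
The Timm8b window holds an ETS and an NRF1 element, and the Timm10 window holds 3 matches to the ETS element and an E-box, with 2 of the ETS matches overlapping each other. The Timm10b window holds 1 ETS element. In the Timm9 window lie 2 E-boxes and a heat shock element core, and in the Hspe1 window a heat shock core runs into a pair of ETS matches on opposite strands.

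A promoter entry existed for 36 of the 42 genes and for 9987 of the measured genes, and these windows of the same length were searched for the same letters. The ETS element was found in 18 of 36, against 18.7% of all measured genes with an entry. It stood in 7 of the 17 promoters of genes called lower and in 11 of the 19 of genes not called. The NRF1 element was in 6 of 36 and 1096 of 9987, the E-box in 6 of 36 and 11.3%, the heat shock core in 3 of 36 and 7.4%, and the YY1 element in 2 of 36 and 4.9%. Hspe1 and Hspd1 both count for the heat shock core and the ETS element. They start 95 bases apart on opposite strands with overlapping windows, so a shared site can count for both. Of the 6 promoters with an E-box, 5 belong to genes called lower (Tomm20, Timm10, Timm8a1, Timm9 and Lonp1) and 1 to a gene not called (Hspd1). Among all 6 small TIM chaperone genes, 3 promoters hold the ETS element (Timm8b, Timm10 and Timm10b), 3 the E-box, 1 the NRF1 element, 1 the heat shock core and 0 the YY1 element. Timm13 holds none of the 5, and Timm8a1 only the E-box. A match describes the letters and shows no binding, and the motifs too were chosen with earlier results known.

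All 6 measured small TIM chaperones were lower in mutants. These proteins of the intermembrane space form ring-shaped hexamers, Timm9 with Timm10 and Timm8 with Timm13, that shield hydrophobic precursors on their way to the inner membrane. The genes lie on 6 different chromosomes (X, 9, 12, 2, 7 and 10 for Timm8a1, Timm8b, Timm9, Timm10, Timm10b and Timm13). Below, the values of a group are in the order of replicates 1 to 5.

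Timm9 measured 7.31, 6.51, 7.20, 6.75 and 8.11 in mutant livers, against 8.50, 8.21, 8.49, 9.03 and 8.52 in control livers. The groups did not overlap, and mutant livers 2 and 4 were lowest. The difference, -1.38 (SE 0.28, adjusted p = 0.0135), was the largest of the 42 genes. Its other probe set differed by -0.78 (adjusted p = 0.129 over all probe sets).

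Timm10, the partner of Timm9, measured 9.86, 9.20, 9.62, 9.73 and 10.18 in mutants, against 10.75, 10.47, 10.46, 10.80 and 10.45 in controls. Every mutant lay below every control, with mutant liver 5 nearest to them. It fell by 0.87 on the log2 scale (SE 0.17, adjusted p = 0.0115).

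Timm13 measured 11.33, 10.83, 11.20, 10.88 and 11.56 in mutants, against 11.98, 12.06, 12.02, 12.05 and 12.16 in controls. The controls spanned 0.18, and the closest mutant, liver 5, lay below all of them. Its difference of -0.89 (SE 0.13, adjusted p = 0.00651) had the smallest p of the 42.

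Timm8b, 1 of the alternative partners of Timm13, measured 9.60, 9.14, 9.60, 9.29 and 10.15 in mutants and 10.43, 10.51, 10.69, 10.41 and 10.45 in controls. The groups were apart, and the difference was -0.94 (SE 0.17, adjusted p = 0.00903). Timm8a1, the other partner, whose human counterpart is mutated in deafness-dystonia syndrome, measured 10.60, 10.08, 10.49, 10.46 and 11.08 in mutants and 11.45, 11.49, 11.52, 11.31 and 11.14 in controls. Here mutant liver 5, at 11.08, came close to control liver 5, at 11.14, without reaching it. Timm8a1 fell by 0.84 on the log2 scale (SE 0.16, adjusted p = 0.0115), and by 1.10 on its other probe set.

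Timm10b, which sits on the outer face of the TIM22 complex, averaged 10.69 ± 0.31 in mutants and 11.39 ± 0.06 in controls (SD, n = 5 each). Its 3 probe sets differed by -0.78 to -0.70, and on each of them the groups did not overlap. The difference was -0.70 (SE 0.14, adjusted p = 0.0115). For all 6 chaperones the call held under each of 19 alternative settings.

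**Figure D2:**
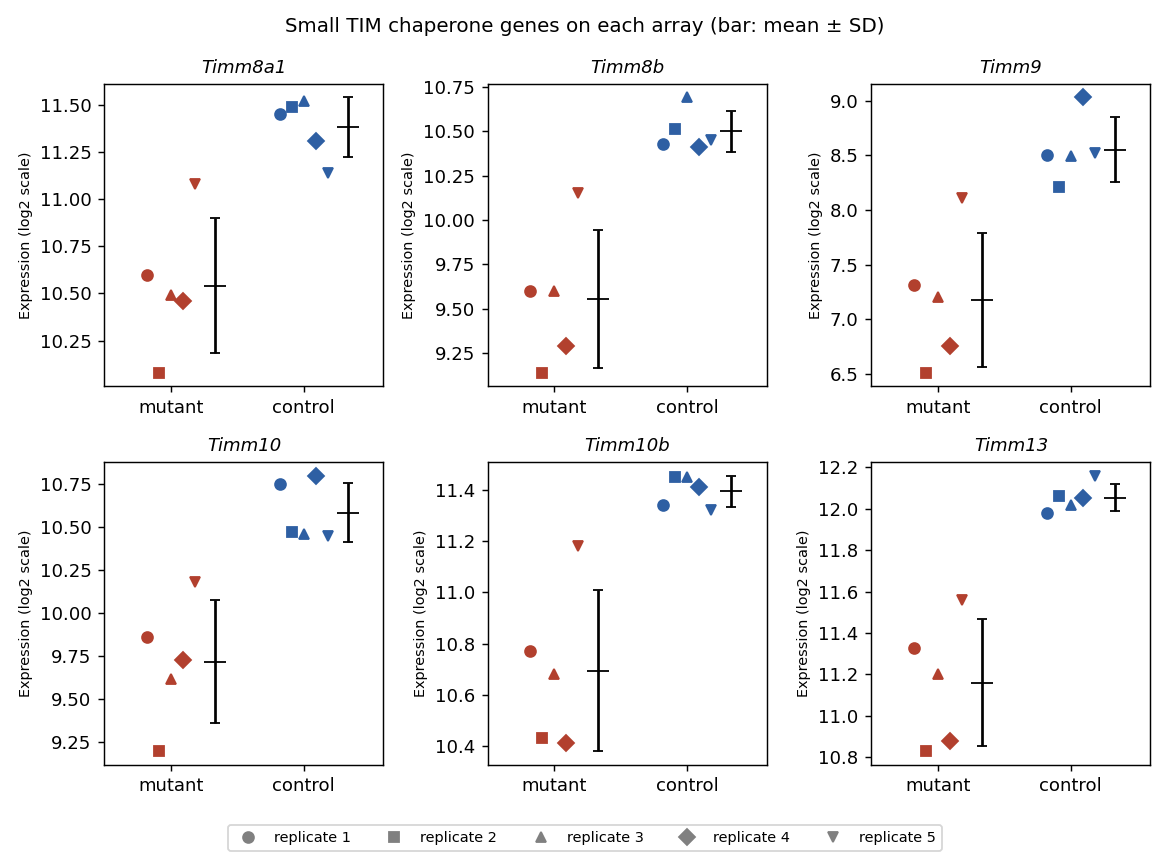
Values of the 6 small TIM chaperone genes on each array (vertical axes, log2 scale, a separate range for each gene), mutants left and controls right, with mean ± SD beside the points and a symbol for each replicate number. In each panel the 5 mutants lie below the 5 controls, and mutant liver 5 is the closest to them.

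The TIM22 translocase itself, which inserts the carriers into the inner membrane, was also lower. Timm22, its channel, measured 6.76, 6.13, 6.30, 6.47 and 7.21 in mutants and 7.18, 7.37, 7.54, 7.39 and 7.65 in controls. Mutant liver 5, at 7.21, overlapped control liver 1, at 7.18, and the other mutants lay below all controls. The difference was -0.85 (SE 0.19, adjusted p = 0.0176). Its second probe set was near the bottom of the scale, with 2.64 ± 0.42 in mutants and 2.48 ± 0.01 in controls, and averaging both ended the call (adjusted p = 0.0935, within 0.00127 to 0.0935 over the alternatives). Timm29, a metazoan subunit of the complex, measured 8.54, 8.42, 8.57, 8.31 and 8.98 in mutants and 8.90, 9.03, 8.98, 9.07 and 8.99 in controls. Mutant liver 5 again lay among the controls, and the difference was -0.43 (SE 0.11, adjusted p = 0.0283). That call was lost in 8 of the 10 fits without 1 array, those without mutant liver 1, 2, 3 or 4 or control liver 2, 3, 4 or 5, and the adjusted p ran from 0.000863 to 0.0641 over all alternatives. On its other probe set, where the groups did not overlap, Timm29 differed by -0.64 (adjusted p = 0.00724 over all probe sets).

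In the outer membrane, 3 subunits of the TOM complex, the core of the SAM complex and 1 metaxin fell. Tomm22, the central receptor that also organises the complex, measured 9.63, 9.68, 9.85, 9.72 and 10.12 in mutants and 10.39, 10.33, 10.43, 10.40 and 10.15 in controls. The mutants lay below the controls, with liver 5 of each group next to the other at 10.12 and 10.15. The difference was -0.54 (SE 0.10, adjusted p = 0.00957), and it was -0.13 on a second probe set (adjusted p = 0.427 over all probe sets).

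Tomm20, the receptor for presequences, averaged 12.81 ± 0.11 in mutants and 13.11 ± 0.11 in controls (SD, n = 5 each) and fell by 0.30 on the log2 scale (SE 0.07, adjusted p = 0.0215). All 6 of its probe sets were lower, from -0.49 to -0.23, and 3 were called over all probe sets. The call was lost without control liver 3 (adjusted p = 0.0508) and under both other probe set rules (adjusted p = 0.0528 and 0.459, within 0.00934 to 0.459 over the alternatives).

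Tomm7, a small subunit that modulates assembly of the complex, measured 9.72, 9.66, 9.91, 9.38 and 10.32 in mutants and 10.28, 10.58, 10.54, 10.24 and 10.39 in controls. Mutant liver 5, at 10.32, stood within the control range, which the other 4 mutants did not reach. Tomm7 fell by 0.61 on the log2 scale (SE 0.16, adjusted p = 0.0281). The call, but not the sign, was lost in 6 of the fits without 1 array, those without mutant liver 1, 2 or 4 or control liver 2, 3 or 5, where the difference was -0.61 to -0.51. The adjusted p ran from 0.00238 to 0.0637 over the alternatives.

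Mtx1, a metaxin that works with the SAM complex in inserting beta-barrel proteins, measured 8.50, 8.57, 8.71, 8.46 and 8.69 in mutants and 8.97, 9.11, 9.09, 8.87 and 8.93 in controls. The groups were clearly apart, and mutant liver 5 stood with the other mutants. It fell by 0.41 on the log2 scale (SE 0.07, adjusted p = 0.00840), and by 0.47 on its second probe set. Samm50, the core of the SAM complex, averaged 11.69 ± 0.09 in mutants and 11.96 ± 0.09 in controls (SD, n = 5 each), without overlap and with mutant liver 5 the lowest of all. It fell by 0.27 on the log2 scale (SE 0.06, adjusted p = 0.0203) on a probe set whose type can also bind other transcripts, and by 0.27 on the other. That call was lost when each array's median or 75th percentile was subtracted (adjusted p = 0.116 and 0.0807, within 0.00991 to 0.116 over the alternatives).

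The channel and the carrier receptor of the TOM complex did not pass. Tomm40, the channel, differed by -0.29 (SE 0.12, adjusted p = 0.113), with a 95% interval of -0.56 to -0.03. Tomm70a, the receptor for carrier precursors, differed by -0.08 (SE 0.09, adjusted p = 0.592) on its brightest probe set, while its 5 probe sets ran from -0.08 to 0.70. On the one at 0.70 every mutant lay above every control (adjusted p = 0.0146 over all probe sets), so the array gives no single direction for this gene. Mtx2 at -0.08, Tomm40l at -0.21 and Tomm34 at -0.05 did not pass either.

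In the TIM23 pathway, 6 of 11 genes fell, among them the receptor Timm50 and Hspa9 with its exchange factor Grpel1. Timm50, which receives presequences from TOM, measured 9.30, 9.23, 9.55, 9.11 and 9.45 in mutants and 9.61, 9.91, 9.62, 9.70 and 9.80 in controls. The highest mutant, liver 3, lay just below the lowest control, and the difference was -0.40 (SE 0.09, adjusted p = 0.0207). Timm21, which links TIM23 with TOM and the respiratory chain, measured 8.43, 8.18, 8.68, 8.34 and 9.24 in mutants and 9.18, 9.01, 9.44, 9.15 and 9.24 in controls. Mutant liver 5 equalled control liver 5 at 9.24, while mutants 1 to 4 lay below every control. Timm21 fell by 0.63 on the log2 scale (SE 0.19, adjusted p = 0.0416). The call was lost in 9 of the 10 fits without 1 array, where the difference was still -0.68 to -0.53. It held without mutant liver 5, where the difference was -0.80, and the adjusted p ran from 0.00162 to 0.0939 over the alternatives.

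Hspa9, the Hsp70 that pulls precursors into the matrix, measured 12.99, 13.01, 13.01, 12.67 and 12.83 in mutants and 13.31, 13.18, 13.20, 13.22 and 13.14 in controls. The groups did not overlap, and mutant liver 4 was the lowest. Hspa9 fell by 0.31 on the log2 scale (SE 0.07, adjusted p = 0.0218), its 4 probe sets differed by -0.31 to -0.11, and the call was lost when the array median or 75th percentile was subtracted and with the probe set of largest variance (adjusted p = 0.101, 0.0720 and 0.321, against 0.0145 at the lowest over the alternatives).

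Grpel1, the nucleotide exchange factor of Hspa9, averaged 11.26 ± 0.15 in mutants and 11.56 ± 0.05 in controls (SD, n = 5 each), again without overlap. It fell by 0.30 on the log2 scale (SE 0.07, adjusted p = 0.0214), a call lost without mutant liver 4 (adjusted p = 0.0504, within 0.00825 to 0.0670 over the alternatives). Grpel2, its paralogue, had the highest positive difference of the 42 genes. It measured 10.71, 10.73, 10.10, 10.35 and 10.21 in mutants, against 9.39, 9.74, 9.70, 10.32 and 10.34 in controls. Mutant livers 3 and 5 lay below control livers 4 and 5, so the groups overlapped, and the difference of 0.52 (SE 0.21, adjusted p = 0.112), with a 95% interval of 0.05 to 0.99, did not pass. The second Grpel2 probe set differed by 0.58 (adjusted p = 0.162 over all probe sets).

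Dnajc15, a J-domain protein of the import motor, measured 10.08, 9.51, 10.15, 9.75 and 10.61 in mutants and 10.61, 10.84, 10.86, 10.64 and 10.76 in controls. Mutant liver 5 equalled control liver 1 at 10.61, and the others lay below all controls. It fell by 0.72 on the log2 scale (SE 0.18, adjusted p = 0.0250), a call lost without mutant liver 4 or control liver 2 or 3 (adjusted p from 0.0524 to 0.0602, within 0.00220 to 0.0602 over the alternatives). Timm44, which tethers Hspa9 to the channel, fell by 0.21 on the log2 scale (SE 0.05, adjusted p = 0.0263), with 9.05 ± 0.07 in mutants and 9.26 ± 0.08 in controls (SD, n = 5 each) and no overlap. Its 3 probe sets differed by -0.41 to -0.21 and were each called over all probe sets, but at the gene level the call was lost in 9 of 19 alternatives, among them those without mutant liver 2 or 4 or control liver 1 or 5 (adjusted p from 0.0142 to 0.105 over all 19).

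The channel of the complex did not pass. Timm23 differed by -0.26 (SE 0.09, adjusted p = 0.0657), with 11.71 ± 0.19 in mutants and 11.97 ± 0.06 in controls (SD, n = 5 each), and was called in 4 of 19 alternatives, 1 of them without mutant liver 5. Pam16, which regulates the J-domain proteins of the motor, differed by -0.15 (SE 0.09, adjusted p = 0.285). Timm17a and Timm17b, the alternative partners of Timm23 in the channel, differed by -0.09 and 0.00, with 95% intervals of -0.29 to 0.12 and -0.30 to 0.31.

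**Figure D3:**
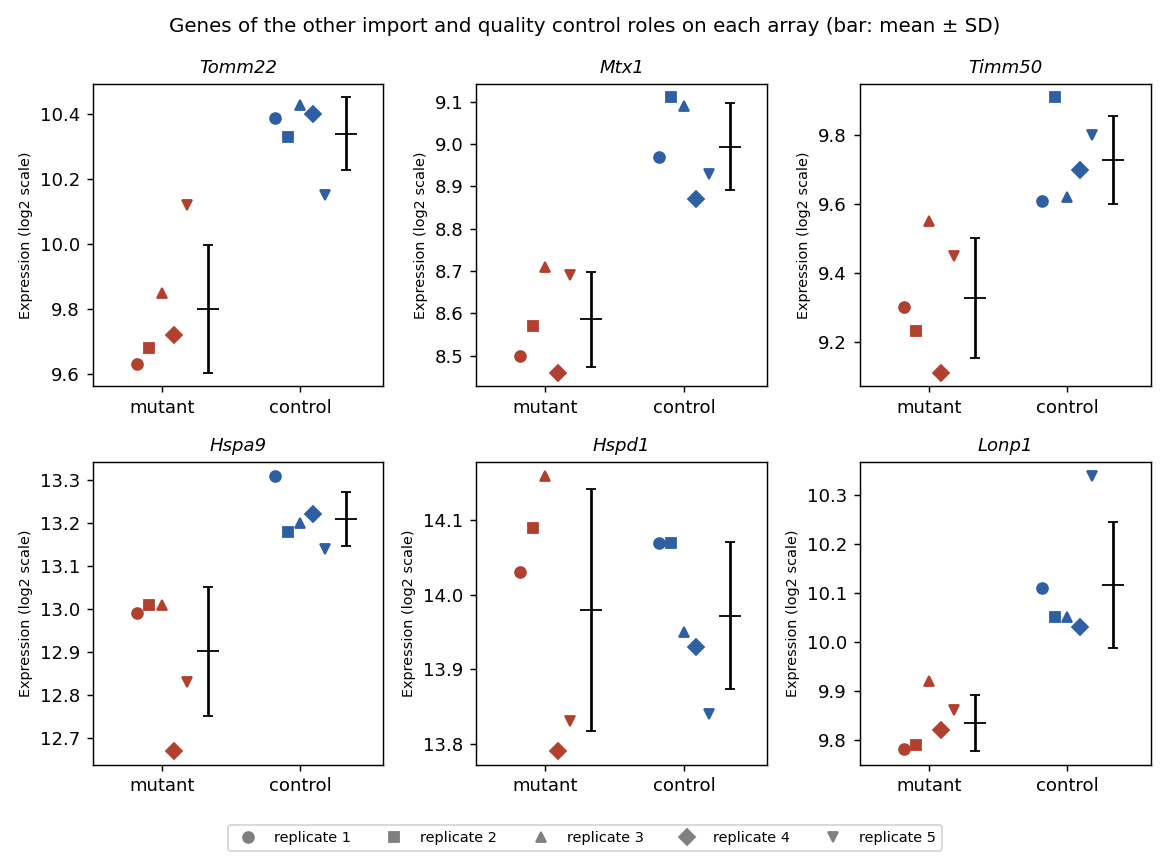
Values on each array (vertical axes, log2 scale, a separate range for each gene) for Tomm22, Mtx1, Timm50, Hspa9, Hspd1 and Lonp1, mutants left and controls right, with mean ± SD. The groups are apart for each gene shown except Hspd1, where the mutant range takes in that of the controls.

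In the matrix, the presequence peptidase and the folding chaperones did not pass the test. The peptidase subunits Pmpca and Pmpcb differed by 0.05 and 0.06, with 95% intervals of -0.13 to 0.22 and -0.19 to 0.31. The other Pmpca probe set was higher by 0.33 with every mutant above every control (adjusted p = 0.0257 over all probe sets). Hspd1, the Hsp60 that encloses newly imported proteins, measured 14.03, 14.09, 14.16, 13.79 and 13.83 in mutants and 14.07, 14.07, 13.95, 13.93 and 13.84 in controls. The mutant range took in that of the controls, and the difference of 0.01 (SE 0.08, adjusted p = 0.968) had a 95% interval of -0.18 to 0.20. Hspe1, the Hsp10 lid of Hspd1, measured 13.01, 13.23, 12.89, 13.02 and 13.08 in mutants and 13.02, 12.97, 13.12, 12.58 and 12.60 in controls, with control livers 4 and 5 the lowest, and differed by 0.19 (SE 0.12, adjusted p = 0.307). Trap1, the mitochondrial Hsp90, differed by -0.15 (SE 0.05, adjusted p = 0.0720). Hspd1 and Hspe1 start close together on opposite strands, so their promoter windows overlap.

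Of the 7 proteases, only Lonp1 passed the test. Lonp1, the main ATP-dependent protease of the matrix, measured 9.78, 9.79, 9.92, 9.82 and 9.86 in mutants and 10.11, 10.05, 10.05, 10.03 and 10.34 in controls. All mutants lay below all controls, and mutant liver 5 stood among the other mutants. It fell by 0.28 on the log2 scale (SE 0.07, adjusted p = 0.0204), and the call held under each of the 19 alternatives. Clpp and Clpx, the peptidase and unfoldase of the other soluble protease, did not pass. The difference of Clpp was -0.15 (SE 0.10, adjusted p = 0.314). That of Clpx was -0.26 (SE 0.22, adjusted p = 0.469), and its 2 probe sets had opposite signs, -0.26 and 0.60.

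Yme1l1, the protease of the inner membrane that faces the intermembrane space, differed by -0.20 (SE 0.07, adjusted p = 0.0817), and its 3 probe sets ran from -0.20 to 0.14. The subunits of the matrix-facing protease, Afg3l2 and Spg7, differed by -0.13 and 0.02, and Oma1, the stress-activated protease that cleaves Opa1, by -0.01. Their 95% intervals ran from -0.27 to 0.02, -0.14 to 0.17 and -0.17 to 0.15. Phb2, a prohibitin that forms scaffolds around these proteases, differed by -0.20 (SE 0.11, adjusted p = 0.221). Its 4 probe sets ran from -0.41 to 0.13, and 1 of them was called lower over all probe sets. The positive one was the dimmest, with a mean of 5.23 and an SD of 0.65 in mutants and 0.60 in controls. The others, at means of 10.60 to 12.92, differed by -0.41 to -0.20. Phb2 passed only without mutant liver 5 among the alternatives (adjusted p = 0.0486, within 0.0486 to 0.872).

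**Figure D4:**
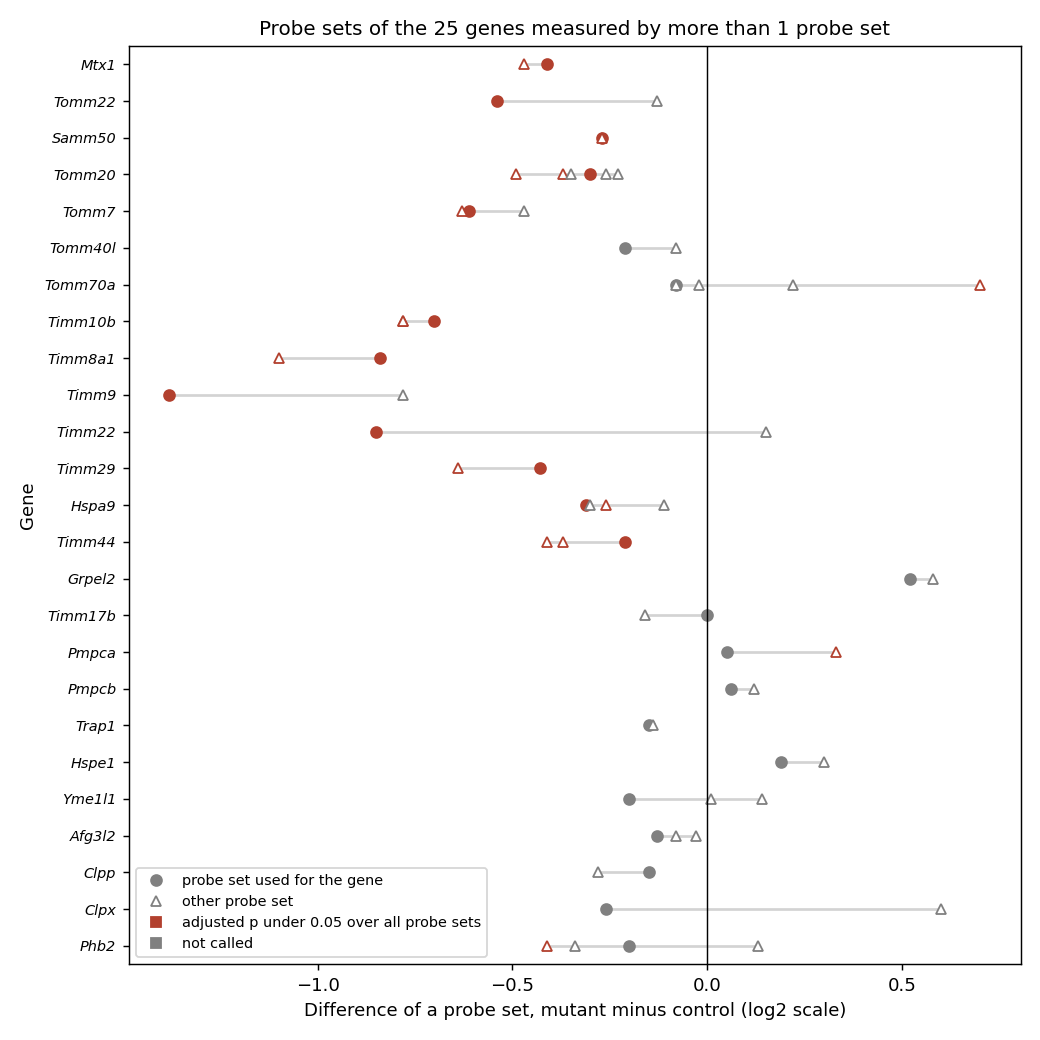
Difference between mutant and control liver for each probe set (horizontal axis, log2 scale) of the 25 genes with more than 1, in the order of the roles. Circles are the probe sets used for a gene, triangles the others, and red marks an adjusted p under 0.05 over all probe sets. Of the 25 genes, 19 have all probe sets on 1 side of zero, and Tomm70a, Clpx and Timm22 have the widest spreads across it.

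The 42 genes were measured by 83 probe sets in all, and 25 genes had more than 1. For 19 of the 25, every probe set had the same sign. The 6 with both signs were Clpx, Phb2, Timm17b, Timm22, Tomm70a and Yme1l1, and of these only Timm22 was called. The probe sets used for Samm50, Timm44 and Timm17b are of the type that can bind unrelated transcripts, and those of Mtx2, Pam16, Hspe1, Clpp and Afg3l2 of the type that can bind several related transcripts, so the identity of their signal is less certain.

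The mutant livers differed among themselves. Of the 20 genes called lower, mutant liver 2 had the lowest value of the mutants in 11 and mutant liver 4 in 6, while mutant liver 5 had the highest in 14. Mutant livers 1 to 4 each lay below every control for all 20, and mutant liver 5 did so for 15. These 20 were chosen by the test on the same arrays, which favours such a position. Over all 42 genes, mutant livers 1 to 5 lay below every control for 31, 31, 23, 31 and 18. The matching counts over all genes on the array were not taken. Over the small TIM and TIM22 genes the mean shift from the control mean was -0.76, -1.27, -0.90, -1.07 and -0.31 in mutant livers 1 to 5, against -0.04 to 0.07 in controls. Relative to the control mean, Timm9 stood at -0.44 in mutant liver 5 and at -1.61 on average in the other mutants. Lonp1, Hspa9 and Samm50 stood at -0.25, -0.38 and -0.42 in mutant liver 5 and at -0.29, -0.29 and -0.23 on average in mutant livers 1 to 4. Without mutant liver 5, 22 of the 42 genes were lower, against 2160 of all 12366 genes, and 28.6% of all genes were called in either direction.

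**Figure D5:**
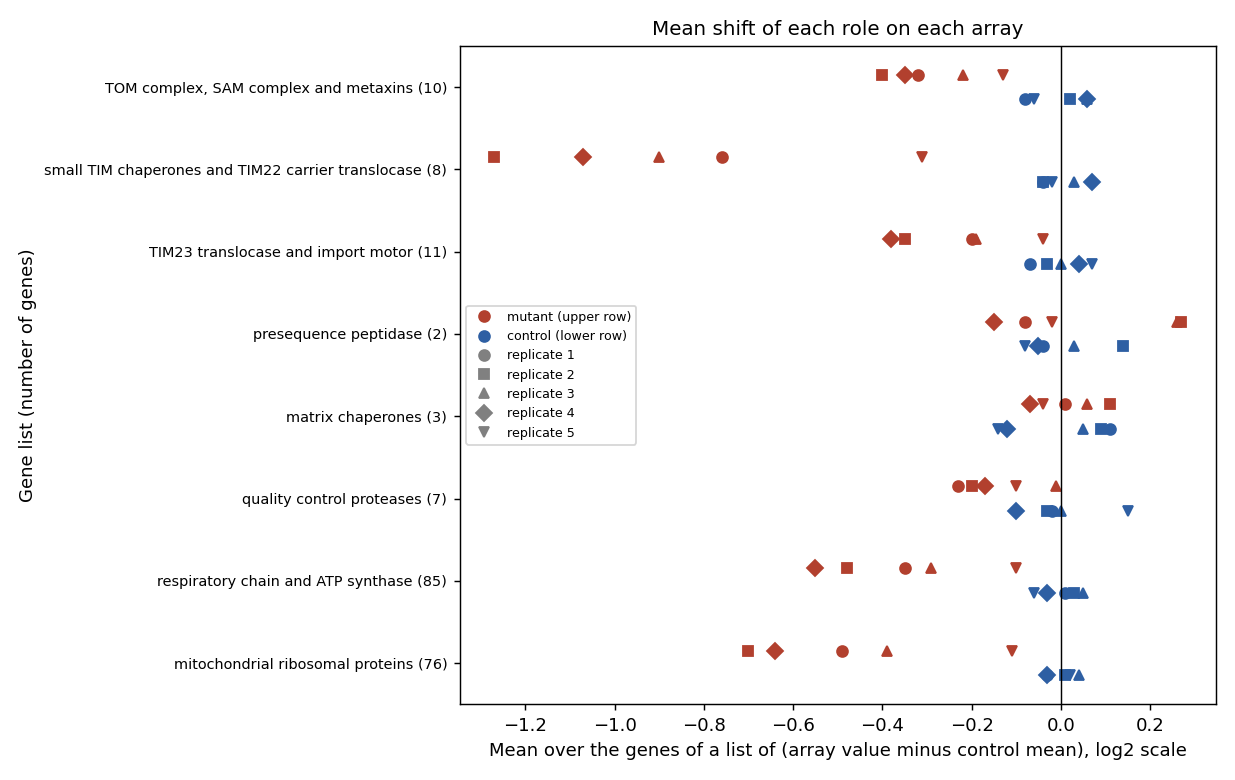
Mean over the genes of each list of the value minus the control mean (horizontal axis, log2 scale) on each array, with mutants in the upper and controls in the lower row of each list. For the small TIM and TIM22 genes the mutants run from -1.27 to -0.31 and the controls from -0.04 to 0.07, and mutant liver 5 is the mutant nearest to the controls for these genes, for the TOM and TIM23 lists, for the respiratory chain and for the mitochondrial ribosome.

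Other mitochondrial genes were lower too. Of 85 genes of the respiratory chain and ATP synthase, 48 were lower and 0 higher (median -0.31), and of 76 mitochondrial ribosomal proteins, 44 were lower and 0 higher (median -0.43). The share called was 56.5% and 57.9%, against 47.6% of the import, chaperone and protease genes and 20.1% of all genes. The mean shift of the ribosomal list ran from -0.70 to -0.11 in mutants and from -0.03 to 0.04 in controls. Whether the 3 lists differ was not tested.

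Further genes of import and quality control came from a separate list of 26, of which 24 were measured. Of these, 8 were lower and 0 higher, 16 did not pass, and the median difference was -0.20. The share called was 33.3%, all as lower, against 20.1% of all genes, 11.5% as lower, with a median of -0.01. Atf5, a transcription factor of the mitochondrial stress response, measured 11.06, 10.83, 11.34, 10.62 and 11.48 in mutants and 12.07, 12.33, 11.94, 12.21 and 12.30 in controls. The groups were far apart, and it fell by 1.10 on the log2 scale (SE 0.16, adjusted p = 0.00645).

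Gfer, the sulfhydryl oxidase that reoxidises Chchd4 while this enzyme folds the small TIM chaperones in the intermembrane space, measured 9.55, 8.72, 9.43, 9.09 and 9.86 in mutants and 10.40, 10.31, 10.33, 10.42 and 10.63 in controls. Every mutant lay below every control, and it fell by 1.09 on the log2 scale (SE 0.19, adjusted p = 0.00869). Chchd4 itself differed by -0.20 (SE 0.13, adjusted p = 0.332). Immp1l, a subunit of the inner membrane peptidase, fell by 0.64 on the log2 scale (SE 0.11, adjusted p = 0.00859), and the metaxin Mtx3 fell by 0.74 on the log2 scale (SE 0.13, adjusted p = 0.00950), a call lost with the probe set of largest variance (adjusted p = 0.0591, within 0.00312 to 0.0591 over the alternatives).

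The other 4 that fell were Romo1, Bcs1l, Stoml2 and Dnaja3, with differences from -0.65 to -0.32. Romo1 and Bcs1l kept their calls under each of the 19 alternatives. Stoml2 lost its call in 4 of them, without mutant liver 1 or 2 or control liver 2 or 5 (adjusted p from 0.00772 to 0.0528 over the alternatives). Dnaja3 lost its call in 8 of them, 7 being fits without 1 array, namely mutant liver 1, 2 or 4 or control liver 1, 3, 4 or 5 (adjusted p from 0.0138 to 0.0710 over the alternatives).

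Of the 24 differences, 22 were negative. The largest in size belonged to a gene that did not pass, Timmdc1, an assembly factor of respiratory complex I with a Tim17-like fold. It measured 6.63, 6.29, 6.62, 6.59 and 8.25 in mutants and 6.95, 8.21, 8.85, 8.73 and 8.22 in controls. Mutant liver 5 and control liver 1 stood apart from their groups, so the groups overlapped, and the difference was -1.32 (SE 0.45, adjusted p = 0.0647). Dnlz, which keeps Hspa9 soluble, differed by -0.60 (SE 0.26, adjusted p = 0.131). Nearer to zero were Pink1, the kinase that marks mitochondria with failed import, at -0.01, Opa1, the substrate of Oma1 and Yme1l1, at 0.07, and Oxa1l, the inner membrane insertase, at -0.08.

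In whole liver, fewer cells of a type and less RNA per cell cannot be told apart. Among the mean marker shifts of other cell types, only that of stellate cells had every mutant apart from every control. The mean shift of the 10 Kupffer cell markers ran from 0.32 to 0.89 in mutants and from -0.66 to 0.38 in controls, and that of the 8 stellate cell markers from 0.33 to 0.90 in mutants and from -0.13 to 0.14 in controls. Sinusoidal endothelial markers, of which 1 of 8 (Lyve1) fell, ran from -0.38 to -0.14 in mutants and from -0.27 to 0.19 in controls. The 5 biliary markers, with 0 called and 2 below 3.60, the 25th percentile of all values, ran from 0.15 to 0.87 in mutants and from -0.11 to 0.18 in controls. Cycling markers, with 0 of 4 called, ran from -1.24 to 0.41 in mutants and from -1.35 to 0.99 in controls. The 7 hepatocyte markers ran from -0.02 to 0.33 in mutants and from -0.30 to 0.27 in controls. Most of that spread came from Tat and Ass1, with an SD of 0.68 and 0.94 in controls, against 0.04 to 0.11 for the others. The Ass1 probe set averaged only 7.94 in controls. The part of these shifts in the differences of the import genes was not tested.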

How the data were processed

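Total RNA (100 ng a sample) from whole liver was amplified and labelled with biotin, per the labels' protocols. The authors deposited log2 values per probe set for 10 arrays. The log2 scale was read from the values (0.27 to 16.65). No batch is named in the labels. How the authors corrected background, summarised probes and normalized, and the base of the logarithm, was not given in the sources used here. The table holds 25995 probe sets, 37 of them controls, with 1 gene symbol on 21613, several on 638 and none on 3707. Depth does not apply, and the number of arrays limits precision.

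Groups and replicate numbers came from the sample titles. Nothing in the labels ties animals of the same number, and same-numbered arrays did not deviate together (correlations from -0.18 to 0.09, none over 0.1), so the model had no block. Genes were tested two-sided in R 4.3.3 with limma 3.58.1 (lmFit, then eBayes), and p-values were adjusted by Benjamini-Hochberg over the 12366 genes, or over all probe sets where so stated, called at an adjusted p under 0.05. Intervals are 95% moderated intervals. The fit was tested on simulated data. The spread behind each p-value is that of these livers. The 42 genes, the roles, the other lists and the motifs were chosen with earlier results of these data known. Genes named were all called ones, up to 4 not called per role, genes with discordant probe sets and up to 4 called genes of the separate list. Others named beyond this rule (Tomm34, Timm17b, Spg7, Oma1, Romo1, Bcs1l, Stoml2, Dnaja3, Chchd4, Timmdc1, Dnlz, Pink1, Opa1, Oxa1l and genes starting beside a member) were chosen after their values were seen. The alternatives tried were leaving out dim genes, 2 other probe set rules, scaling by quantiles, by array medians or by 75th percentiles, eBayes with trend and robust options, array weights, a replicate block and leaving out each array.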

Additional observations from a re-analysis of the deposited data

Results flagged for a closer look

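Of 84 groups of 5 arrays (42 genes, mutant and control), 3 held a value whose gap to its nearest neighbour took a larger share of the group's range than the 95% critical value of Dixon's test, which chance passes in about 1 of 20 groups. Lonp1 stood at 10.34 in control liver 5, above 10.03 to 10.11 in the other controls, the gap being 0.741 of the range. Without this array Lonp1 kept its call. Timm17a stood at 9.63 in mutant liver 2, below 9.97 to 10.10 in the other mutants (0.716). Trap1 stood at 11.02 in mutant liver 3, above 10.85 to 10.89 in the other mutants (0.780), and without this array its difference passed the test (adjusted p = 0.0449, within 0.0449 to 0.358 over the alternatives). The 3 values lie on 3 different arrays.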

How the results depend on the processing

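Of the 20 genes called lower, all kept a negative difference under each of 19 alternatives, and 9 kept the call throughout: Lonp1, Mtx1, Timm10, Timm10b, Timm13, Timm8a1, Timm8b, Timm9 and Tomm22. The other 11 lost it under 1 or more. The number lower was 14 to 22 without 1 array (14 without mutant liver 4, 22 without mutant liver 5) and 17 to 21 under other scalings, probe set rules, filters and weights. The count of higher genes was 0 except with the probe set of largest variance, where it was 2, Tomm70a at 0.70 (adjusted p = 0.0124, a reversed sign, within 0.0124 to 0.983 over the alternatives) and Pmpca at 0.33 (adjusted p = 0.0233). With the replicate block, 16 of the 42 were lower, and 719 of all genes were higher and 1117 lower. There Grpel1, Timm29, Timm44 and Timm50 lost their calls (adjusted p = 0.0670, 0.0607, 0.0519 and 0.0561), as did Dnaja3 (adjusted p = 0.0673). Of 5 mutants, 1 correlated best with the control of its own number. Without 1 array, 627 to 1371 of all genes were higher and 764 to 2160 lower, and 6 to 9 of the 24 further import genes were lower. The Dicer1 probe sets kept their call without any 1 array. The cause of lost calls was not tested. Signal over background cannot be assessed, since detection calls were not used here.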

Other observations

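Of the 36 genes with a promoter entry, 12 have a protein-coding gene that starts on the other strand within 1000 bases, and all these neighbours were measured. Timm8b starts beside Sdhd, a membrane anchor of respiratory complex II, and both fell, by 0.94 and 0.67 on the log2 scale (adjusted p = 0.00903 and 0.00657, limma). Timm29 and Yipf2 both fell as well, by 0.43 and 0.45 (adjusted p = 0.0283 and 0.0440). Timm10b and Timm9 fell while their neighbours did not pass, Arfip2 at -0.04 (adjusted p = 0.909) and 2700049A03Rik at -0.07 (adjusted p = 0.831), and so did Lonp1 beside Catsperd at -0.24 (adjusted p = 0.691). Emg1, a ribosome assembly factor, fell by 0.49 (adjusted p = 0.0302) beside Phb2, which did not pass. For Hspd1 with Hspe1, Pmpca with Entr1, Timm17b with Pqbp1, Timm23 with Parg and Yme1l1 with Mastl, neither gene passed.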
